A study of Mus musculus with 24 samples.

Results

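Gene expression in wild type mouse cerebrum was compared with that in wild type cerebellum at postnatal day 42 (P42), for all genes of the count table. The comparison used 8 of the 24 libraries of the series: 4 of cerebrum and 4 of cerebellum, chosen by their wild type and P42 labels, and the mutant libraries were not used. The series was made to study an induced mutation of Polr3a, the gene of the largest subunit of RNA polymerase III, and each age and tissue of it has its own wild types. All 8 libraries came from C57BL/6J mice labelled wild type that had been treated with tamoxifen at P28, and an effect of it that differs between the tissues cannot be told apart from the tissue here. Cerebrum libraries 1 and 3 came from males and 2 and 4 from females. Cerebellum libraries 1, 2 and 3 came from males and 4 from a female, so that sex was a term of every main test. Whether the wild types had a Cre transgene, whether each library is a separate animal, and whether any animal gave both tissues is not stated in the labels. The p-values therefore measure the spread between these libraries, part of which may be technical.

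The cerebrum develops from the forebrain and holds excitatory neurons of cortex and hippocampus, GABAergic interneurons and the projection neurons of the striatum. The cerebellum develops from the anterior hindbrain and is dominated by granule cells, the most numerous neurons of the brain, whose parallel fibres excite Purkinje cells, the only output neurons of its cortex. Regional identity is set in the embryo by transcription factors such as EMX2 in front and EN2 and the ZIC proteins behind, and many of these stay expressed in adult neurons. In bulk tissue, fewer cells of a type and less RNA per cell cannot be told apart, and this holds for every difference below.

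Counted reads per library, in units of 1000000, numbered 18.1 to 23.2 in cerebrum and 13.8 to 16.8 in cerebellum. Levels are counts per 1000000 of the TMM-scaled library total (CPM), in the order of libraries 1 to 4 of a tissue. Log2 fold changes are cerebrum over cerebellum, so that a negative value is higher in cerebellum, and stand with their standard error (SE). Pearson correlations of log2 levels between libraries were 0.959 to 0.982 within cerebrum, 0.985 to 0.991 within cerebellum and 0.896 to 0.944 between tissues. In 8 of 8 libraries, Xist and the Y-linked genes were as the sex on the label calls for.

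Some libraries held transcripts that mark other brain regions, and these values bear on the results that follow. Gabra6, the granule cell GABA-A receptor subunit, had 12.2, 0, 0.377 and 0.212 CPM in cerebrum, so that cerebrum library 1 stood above the other 3, and Pcp2, a Purkinje cell gene, had 6.92, 0.452, 0.863 and 0 CPM there. Cerebrum libraries 3 and 4 held counts of genes of hypothalamus and midbrain that were nearly absent from libraries 1 and 2. Counts were 3, 4, 117 and 241 for Pmch, a hypothalamic neuropeptide, 0, 0, 38 and 90 for Hcrt, the orexin gene, and 5, 5, 654 and 464 for Slc6a3, the dopamine transporter of midbrain neurons. None of these 3 genes passed the filter on low counts, because too few libraries held them, and they were singled out after their values were seen. Cerebrum library 3 was also low in genes of striatal projection neurons, with 34.7, 82.5, 9.87 and 47.2 CPM of Drd1, the D1 dopamine receptor gene of these cells. In cerebellum, library 2 had 6.703, 64.1, 8.41 and 12.6 CPM of Nrgn, a postsynaptic gene of forebrain neurons, in the order of the 4 libraries, so that library 2 stood above the others. What part these transcripts have in a result was not tested beyond leaving the libraries out.

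Of 54532 genes in the table, 17964 had enough counts to be tested, and 20619 had no count in the 8 libraries. At an adjusted p under 0.05, 5472 genes (30.5%) differed between the tissues, 2943 higher in cerebrum (16.4%) and 2529 higher in cerebellum (14.1%). These shares of all genes are the background for every count of called list members below. Of the genes called, 2856 (15.9% of all tested) differed by at least 2-fold, 1655 higher in cerebrum (9.21%) and 1201 higher in cerebellum (6.69%). With scaling by library size alone the larger side turned, to 1430 and 1483. The libraries of the tissues did not overlap for 6534 genes (36.4%), 18.8% with cerebrum above and 17.6% with cerebellum above. With TMM scaling, 141 genes were called with a log2 fold change of at least 4 higher in cerebrum and 101 higher in cerebellum, and for at least 6 the counts were 43 and 21. The median log2 fold change of all genes tested was -0.03 and the median absolute value 0.38. For 9685 genes (53.9%) the 95% interval of the log2 fold change lay within 1 either way, and for 3089 (17.2%) within 0.5. Higher in cerebrum were 53.8% of the calls, but 40.9% with scaling by library size alone, which moved the median of all genes by -0.12 on the log2 scale. Without cerebellum library 4, the count higher in cerebellum was 1660.

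**Figure D1:**
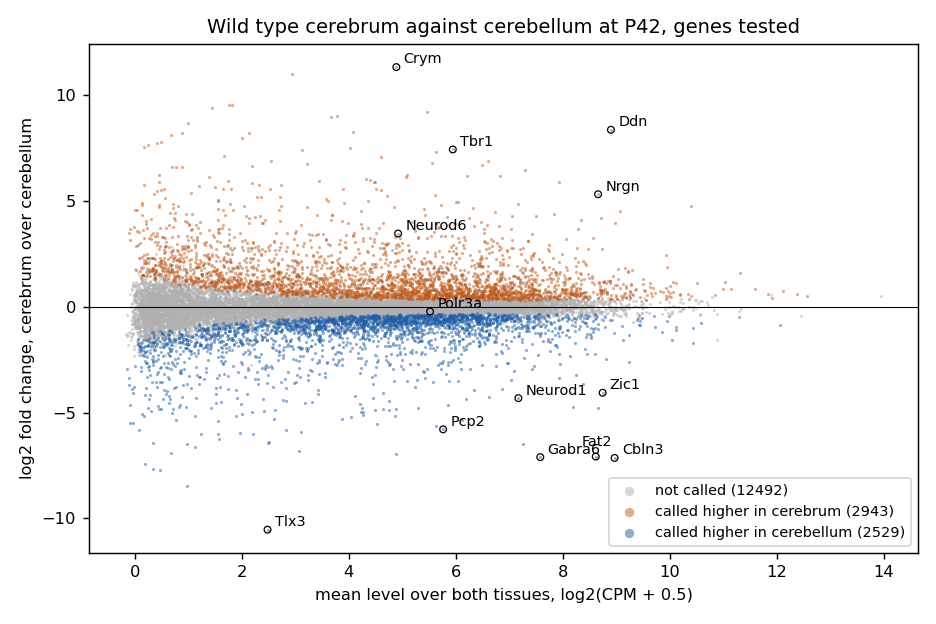
Log2 fold change of each of the 17964 genes (vertical axis, positive is higher in cerebrum) against its mean level over the 8 libraries (horizontal axis, log2 of CPM + 0.5). Coloured points are the 2943 genes called higher in cerebrum and the 2529 called higher in cerebellum, grey points the 12492 not called, and labelled points are genes named in the text; 141 genes lie at 4 or above on the vertical axis among the calls and 101 at -4 or below.

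The genes with the largest differences toward cerebrum included regulators and receptors of forebrain neurons. Crym, which encodes the thyroid hormone-binding protein mu-crystallin (ENSMUSG00000030905, chromosome 7, 120186380 to 120202111, mm10), had 39.3, 68.7, 90.6 and 34.1 CPM in cerebrum and 0, 0, 0 and 0.0568 CPM in cerebellum, which is 1 read over the 4 cerebellum libraries. The ratio of the tissues was 3633, with a 95% interval of 651.7 to 1.435e+05 from counting error alone. Ddn, the dendrin gene of dendritic spines, had 1118, 957, 1099 and 623 CPM in cerebrum and 1.03, 4.74, 3.17 and 2.95 CPM in cerebellum, a log2 fold change of 8.38 ± 0.40 (adjusted p = 5.49e-07). Further genes among the 15 largest were the potassium channel subunit Kcnv1 (7.3 ± 0.37), the G protein regulator Rgs14 of hippocampal area CA2 (7.11 ± 0.32), the striatal receptor Gpr6 (6.9 ± 0.88), the activity-induced factor Egr3 (6.88 ± 0.47) and the anion transporter Slc26a4 (ratio 162, 95% interval 44.5 to 1341, from 2 counts in cerebellum). Krt20, a keratin gene, had a ratio of 492 (95% interval 88.0 to 1.947e+04, from 1 count in cerebellum).

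Of 35 transcription factors of forebrain identity, 28 were called higher in cerebrum, against 16.4% of all genes, and their median log2 fold change was 3.98 against -0.03 for all genes. Factors of the excitatory lineage included Tbr1 (ENSMUSG00000035033, chromosome 2, 61802930 to 61814114), which specifies deep-layer cortical neurons. It had 156, 126, 79.8 and 123 CPM in cerebrum and 1.03, 0.534, 0.966 and 0.341 CPM in cerebellum, a log2 fold change of 7.45 ± 0.33 (adjusted p = 4.14e-07), with no overlap. Fezf2, needed for corticospinal neurons (ENSMUSG00000021743, chromosome 14, 12342094 to 12348189), had 37.6, 20.6, 33.8 and 14.2 CPM in cerebrum and 3 counts in cerebellum, a ratio of 536 (95% interval 183 to 2599). The LIM factor Lhx2 had 5.22 ± 0.26 and Neurod6, a bHLH factor of cortical and hippocampal neurons, 3.47 ± 0.17. Factors of the GABAergic lineage were the DLX homeobox genes. Dlx2 and Dlx5 had no count in cerebellum and were at least 118-fold and at least 126-fold higher in cerebrum, taking 3 counts over the 4 cerebellum libraries as the floor. Dlx1 had 33.04, 35.6, 26.4 and 30.3 CPM in cerebrum and 0, 0.267, 0.138 and 0.227 CPM in cerebellum, a log2 fold change of 7.5 ± 0.35 (adjusted p = 4.96e-07). Dlx6 and its antisense transcript Dlx6os1 overlap and had 563 and 1924 counts over the 8 libraries. Whether the counting used strand is not given in the sources used here, so the Dlx6 ratio of 451 (95% interval 80.67 to 1.786e+04, from 1 count in cerebellum) may hold reads of both. Sp8, a zinc finger factor of olfactory interneurons, had 4.0 ± 0.81 (adjusted p = 0.00378). Of the list, 6 members were not called, and Cux1, an upper-layer factor, was called higher in cerebellum (log2 fold change -0.47 ± 0.14, adjusted p = 0.0308), a call that was lost without cerebellum library 4 (-0.47, adjusted p = 0.0825) and without each of 4 other libraries.

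In cerebellum the largest differences included genes of granule cells, Purkinje cells and brainstem neurons. Tlx3, a homeobox factor of excitatory neurons of hindbrain and spinal cord (ENSMUSG00000040610, chromosome 11, 33200752 to 33203589), had 11.97, 10.01, 6.96 and 11.7 CPM in cerebellum and no count in cerebrum, so that it was at least 262-fold higher. Cbln3, a granule cell partner of the synaptic organiser CBLN1 (ENSMUSG00000040380, chromosome 14, 55878913 to 55884392), had 36.3, 0.226, 1.56 and 0.637 CPM in cerebrum and 1050, 1177, 716 and 1012 CPM in cerebellum, a log2 fold change of -7.15 ± 1.17 (adjusted p = 0.00106). The GABA-A receptor subunit Gabra6 (ENSMUSG00000020428, chromosome 11, 42306437 to 42321072) had 12.2, 0, 0.377 and 0.212 CPM in cerebrum and 405, 487, 282 and 335 CPM in cerebellum, a log2 fold change of -7.11 ± 1.01 (adjusted p = 0.000426). Without cerebrum library 1, the library that held most of its forebrain counts, the value of Gabra6 was -10.79 (adjusted p = 4.44e-07). Fat2, a giant cadherin of granule cells, had -7.08 ± 1.05 (adjusted p = 0.000553), and Pcp2, a G protein modulator of Purkinje cells and ON bipolar cells of the retina, -5.79 ± 0.79 (adjusted p = 0.000321). Ppp1r17, the G-substrate gene of Purkinje cells, had 5.94, 0.181, 0.593 and 1.22 CPM in cerebrum and 88.4, 122, 79.9 and 94.6 CPM in cerebellum, -5.61 ± 0.64 (adjusted p = 9.99e-05) on the log2 scale, with no overlap. Others among the 15 largest were Crtam (-6.95 ± 0.62), a cell adhesion gene known from lymphocytes, Cnpy1 (-6.47 ± 0.68), a gene of the midbrain-hindbrain boundary, Slc5a1 (-5.95 ± 0.55), a sodium-glucose cotransporter, and Il20rb (-5.55 ± 0.52), a cytokine receptor chain.

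Transcription factors of cerebellar and hindbrain identity were tested for 32 of 35 members. Of these, 29 were called higher in cerebellum (14.1% of all genes) and the median log2 fold change was -3.04. En2, an engrailed factor of the midbrain-hindbrain region (ENSMUSG00000039095, chromosome 5, 28165694 to 28172166), had 6.05, 0.723, 5.98 and 1.11 CPM in cerebrum and 134, 124, 119 and 156 CPM in cerebellum, a log2 fold change of -5.34 ± 0.49 (adjusted p = 2.57e-05). The factor Uncx had -4.59 ± 0.51, Pax2, made by developing cerebellar interneurons, -4.5 ± 0.44, and Skor2, a Purkinje cell corepressor, -5.83 ± 0.66 (adjusted p = 9.56e-05). Eomes, which marks unipolar brush cells in the cerebellum and intermediate progenitors in the cortex, had 2.88, 0.633, 0.377 and 0.265 CPM in cerebrum and 40.1, 46.7, 17.6 and 40.98 CPM in cerebellum, a log2 fold change of -5.12 ± 0.60 (adjusted p = 0.00011). Pou3f3, listed with hindbrain factors, went the other way with 0.80 ± 0.15 (adjusted p = 0.00216). The ZIC zinc finger genes Zic1, Zic2, Zic4 and Zic5 were called higher in cerebellum by at least 2-fold. Zic1 (ENSMUSG00000032368, chromosome 9, 91358058 to 91365810) had 107, 28.97, 25.2 and 27.01 CPM in cerebrum and 846, 935, 649 and 801 CPM in cerebellum, a log2 fold change of -4.06 ± 0.43 (adjusted p = 5.91e-05). Again cerebrum library 1 stood above the other cerebrum libraries and below all cerebellum libraries. Zic2 had -3.47 ± 0.25, Zic5 -2.96 ± 0.30 and Zic4 -2.62 ± 0.38, the last overlapping Zic1 on the other strand.

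**Figure D2:**
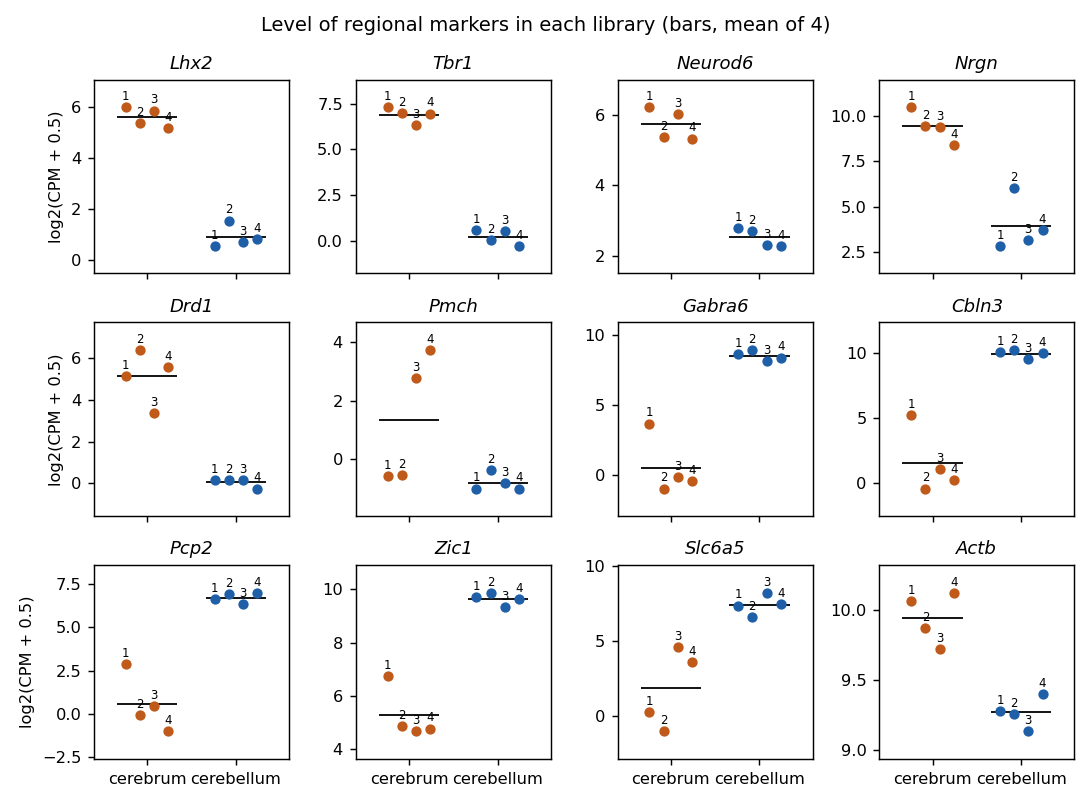
Level (log2 of CPM + 0.5, vertical axis) of 12 genes in each library, cerebrum in the left and cerebellum in the right column of a panel; numbers are library numbers and bars the means of 4 libraries. Lhx2, Tbr1 and Neurod6 were higher in all cerebrum libraries, and Gabra6, Cbln3, Pcp2 and Zic1 in all cerebellum libraries with cerebrum library 1 above its group. Actb varied less but was also higher in all cerebrum libraries, with 844 to 1112 CPM against 562 to 676 CPM in cerebellum.

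Genes of the NeuroD family differed in opposite directions between the tissues. Neurod1 (chromosome 2) had 18.3, 9.67, 10.6 and 14.4 CPM in cerebrum and 303, 344, 194 and 252 CPM in cerebellum, a difference of -4.32 ± 0.26 (adjusted p = 1.47e-06), and is the factor that drives granule cell differentiation. Neurod6 (chromosome 6) had 73.1, 40.5, 63.9 and 39.4 CPM in cerebrum and 6.43, 6.01, 4.41 and 4.37 CPM in cerebellum, a log2 fold change of 3.47 ± 0.17 (adjusted p = 6.18e-07). Libraries of the tissues did not overlap for either. Neurod2 (chromosome 11), which both cortical and granule neurons express, had 77.8 ± 32.4 CPM in cerebrum and 120.1 ± 17.9 CPM in cerebellum (SD, n = 4 each) and was not called (-0.59 ± 0.23, adjusted p = 0.0727). Of the 12 bHLH genes listed, 7 were tested, 2 were called higher in cerebrum and 3 in cerebellum, and Atoh7, a factor known from retinal ganglion cells, had -3.56 ± 0.36 (adjusted p = 4.47e-05). The promoters of these 3 genes and of Gabra6 are shown because the genes differed in opposite directions or, for Neurod2, did not pass the test. Each is the 250 bases upstream of the RefSeq start site (GRCm38.p6, the mm10 assembly), 5′ to 3′ on the strand of the gene, and capitals mark matches to the E-boxes CAGATG and CAGCTG, motifs bound by neurogenic bHLH factors, searched on both strands.
Neurod1: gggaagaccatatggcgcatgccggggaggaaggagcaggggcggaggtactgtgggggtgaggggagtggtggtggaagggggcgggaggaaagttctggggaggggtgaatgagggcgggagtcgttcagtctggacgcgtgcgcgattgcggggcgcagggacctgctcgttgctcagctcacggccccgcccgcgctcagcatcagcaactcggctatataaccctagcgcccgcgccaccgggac
Neurod2: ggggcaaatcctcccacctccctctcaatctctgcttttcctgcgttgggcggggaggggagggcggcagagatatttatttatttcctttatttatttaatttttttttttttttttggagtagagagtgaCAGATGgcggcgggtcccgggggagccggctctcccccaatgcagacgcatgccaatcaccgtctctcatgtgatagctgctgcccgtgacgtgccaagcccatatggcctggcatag
Neurod6: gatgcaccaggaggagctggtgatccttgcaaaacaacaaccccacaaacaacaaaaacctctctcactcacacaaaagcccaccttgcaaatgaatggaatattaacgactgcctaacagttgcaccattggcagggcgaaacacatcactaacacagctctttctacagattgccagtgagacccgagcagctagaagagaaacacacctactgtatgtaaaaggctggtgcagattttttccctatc
Gabra6: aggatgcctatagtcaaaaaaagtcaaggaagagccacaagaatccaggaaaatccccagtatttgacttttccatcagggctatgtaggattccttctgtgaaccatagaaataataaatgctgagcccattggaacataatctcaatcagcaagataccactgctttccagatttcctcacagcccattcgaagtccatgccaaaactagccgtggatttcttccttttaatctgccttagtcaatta
The windows lie at chr2:79456637-79456886, chr11:98329646-98329895, chr6:55681264-55681513 and chr11:42321073-42321322, all on the minus strand. The Neurod1 window holds 22 CG dinucleotides, that of Neurod2 11, that of Neurod6 3 and that of Gabra6 2. A single E-box match was found, in Neurod2. Over the 12259 tested genes with a promoter in the table, 10.4% of windows held CAGATG and 12.3% held CAGCTG. The shares were 12.5% and 14.9% for genes at least 2-fold higher in cerebrum (n = 1097) and 12.9% and 15.2% for those at least 2-fold higher in cerebellum (n = 750). The median number of CG dinucleotides was 11 in both of these groups and 15 over all tested genes. TATAAA was found in 9.57% and 7.73% of the windows of these groups and in 6.63% over all tested genes. These matches describe the sequence only and are not sites of binding.

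Hox genes, which pattern the hindbrain behind the cerebellum and the spinal cord, were tested for 7 of 25 listed members. The other 18 did not pass the filter on low counts. The 7 passed the filter through their cerebellar counts, so that their direction follows from the filter and is given as a description. Hoxa3 and Hoxd3 had no count in cerebrum, and Hoxa3 had 2.67, 2.67, 4.55 and 1.87 CPM in cerebellum. Hoxb3 had 0, 0, 0.377 and 0 CPM in cerebrum and 1.98, 1.402, 3.79 and 2.895 CPM in cerebellum, so that cerebrum library 3 held all of its cerebral reads. Its log2 fold change was -4.63 ± 0.86 (adjusted p = 0.00238) and that of Hoxa4 -4.74 ± 0.83 (adjusted p = 0.00164). Without that library neither had a count in cerebrum, and with 3 counts over the remaining 3 libraries as the floor they were at least 49.1-fold and at least 47.5-fold higher in cerebellum. Summed over the list, the Hox genes had 13.5, 27.6, 55.3 and 21.2 CPM in cerebellum, with library 3 highest.

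Markers of brainstem nuclei were tested for 17 of 20 members, of which 6 were called higher in cerebellum and none in cerebrum (1 at an unadjusted p under 0.05 and 1 with DESeq2). Slc6a2, the noradrenaline transporter, had 0.0577, 0, 0.863 and 0 CPM in cerebrum and 22.6, 10.3, 22.2 and 9.195 CPM in cerebellum, a log2 fold change of -5.93 ± 0.66 (adjusted p = 8.61e-05). Without cerebrum library 3, 1 count was left in cerebrum and the ratio of the tissues was 915.5 (95% interval 163.9 to 3.62e+04, counting error only). Dbh, the enzyme that makes noradrenaline, had -4.39 ± 0.47. Slc6a5, the glycine transporter of glycinergic neurons, which also marks Golgi cells of the cerebellum, had 0.692, 0, 24.3 and 11.6 CPM in cerebrum and 166, 99.2, 301 and 176 CPM in cerebellum. Its call (-4.29 ± 1.01, adjusted p = 0.00901) did not hold without cerebellum library 4 (-3.91, adjusted p = 0.0574). With cerebrum libraries 3 and 4 left out together, 11 brainstem markers and 11 Hox genes were called, in place of 6 and 7. The filter on low counts was run again on the libraries left and let through 18785 genes in place of 17964. All 7 Hox genes of the main fit were already called, so the further Hox calls are of genes that its filter left out.

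Of 30 Purkinje cell markers, 25 were called higher in cerebellum, and the median of the list was -2.53 on the log2 scale. Car8, a carbonic anhydrase-related protein that binds the IP3 receptor (ENSMUSG00000041261, chromosome 4, 8143362 to 8239041), had 66.1, 14.9, 10.1 and 17.5 CPM in cerebrum and 752, 1025, 601 and 722 CPM in cerebellum, a log2 fold change of -4.78 ± 0.52 (adjusted p = 7.5e-05). Homer3, a postsynaptic scaffold of the mGluR1 pathway, had -3.51 ± 0.31, and Slc1a6, the glutamate transporter EAAT4, -3.5 ± 0.27. Calb1, the calcium buffer calbindin, which forebrain neurons also make, differed less (-1.98 ± 0.18). Foxp2, a speech-linked factor made by Purkinje cells and by deep cortical layers, was the exception. It had 21.4, 46.5, 22.5 and 46.7 CPM in cerebrum and 9.302, 20.8, 7.93 and 7.32 CPM in cerebellum, a difference of 1.4 ± 0.42 (adjusted p = 0.0272), and lost its call without cerebellum library 4 (0.79, adjusted p = 0.132) and without each of 3 other libraries.

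Of 27 granule cell markers, 23 were called higher in cerebellum, and the list had a median of -2.80. Cdh15, M-cadherin, had 2.42, 1.401, 1.19 and 1.65 CPM in cerebrum and 46.2, 49.8, 34.8 and 57.4 CPM in cerebellum, a log2 fold change of -4.85 ± 0.25 (adjusted p = 8.22e-07), with no overlap. Cbln1, a secreted organiser of granule cell synapses on Purkinje cells (ENSMUSG00000031654, chromosome 8, 87468405 to 87472609), had 30.3, 6.42, 22.3 and 24.4 CPM in cerebrum and 574, 629.6, 425 and 619.6 CPM in cerebellum, a log2 fold change of -4.72 ± 0.40 (adjusted p = 1.51e-05). Reln, the secreted cortical layering protein reelin, had -1.23 ± 0.21. Slc17a7, the vesicular glutamate transporter VGLUT1 of both granule and cortical neurons, went the other way. It had 978 ± 236 CPM in cerebrum and 468 ± 75.5 CPM in cerebellum (SD, n = 4 each) and a log2 fold change of 1.08 ± 0.19 (adjusted p = 0.00167). Ppfibp1, a liprin-beta gene listed with granule cells, was also higher in cerebrum, with 1.07 ± 0.16 (adjusted p = 0.000574).

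Markers of other cerebellar neurons and of Bergmann glia were more mixed. Of 17 genes of molecular layer interneurons, Golgi cells and unipolar brush cells, 9 were called higher in cerebellum and 4 higher in cerebrum. Of all genes, 14.1% and 16.4% were. Pvalb, the calcium buffer parvalbumin of fast-spiking neurons and Purkinje cells, had 62.05, 29.97, 48.3 and 16.3 CPM in cerebrum and 289, 312, 277 and 335 CPM in cerebellum, a log2 fold change of -2.94 ± 0.29 (adjusted p = 4.24e-05). The 4 that went the other way were Kcnip2 (4.27 ± 0.33), Grm5 (3.1 ± 0.29), Sorcs3 (1.43 ± 0.15) and Grm2 (1.4 ± 0.31), which forebrain neurons make too. Bergmann glia are the radial astrocytes that ensheathe Purkinje cell dendrites, and 8 of 12 of their markers were called higher in cerebellum and none in cerebrum (0 also at an unadjusted p under 0.05 and with DESeq2). Gdf10, a BMP family ligand, had 14.1, 7.68, 9.44 and 7.38 CPM in cerebrum and 163, 157, 128 and 155 CPM in cerebellum, a log2 fold change of -3.92 ± 0.20 (adjusted p = 7.27e-07). A2m, alpha-2-macroglobulin, had -3.08 ± 0.23, and Hopx, a homeodomain-only protein, -1.95 ± 0.41, or -1.13 (adjusted p = 0.0207) without cerebellum library 4. With cerebrum library 1 and cerebellum library 2 left out together, 5 of the 12 were called.

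**Figure D3:**
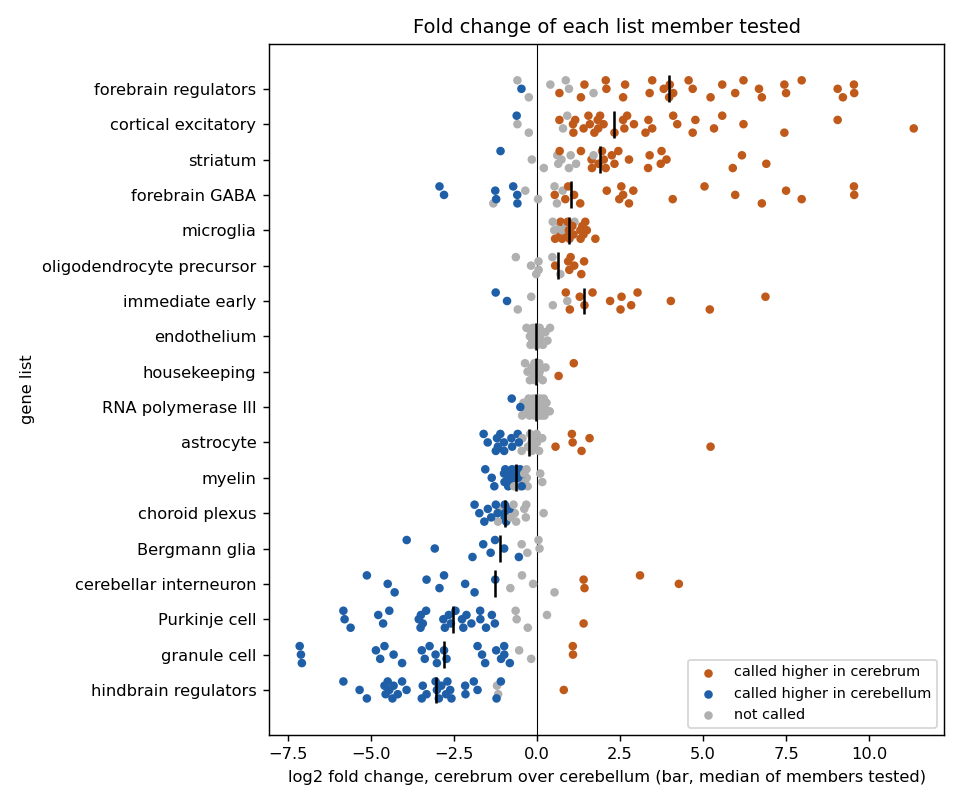
Log2 fold change (horizontal axis, positive is higher in cerebrum) of every tested member of 18 gene lists. Each point is a gene, coloured by the tissue in which it was called higher and grey where not called, and bars are list medians. Lists of forebrain neurons lie to the cerebral side and those of cerebellar neurons to the cerebellar side, while endothelial and RNA polymerase III genes lie close to 0.

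Of 35 markers of cortical and hippocampal excitatory neurons, 30 were called higher in cerebrum, and the median was 2.33. Nrgn, neurogranin, which buffers calmodulin (ENSMUSG00000053310, chromosome 9, 37544492 to 37552904), had 1428, 697, 672 and 336 CPM in cerebrum and 6.703, 64.1, 8.41 and 12.6 CPM in cerebellum, a log2 fold change of 5.33 ± 0.73 (adjusted p = 0.000356). Camk2a, the alpha subunit of the kinase of synaptic plasticity (ENSMUSG00000024617, chromosome 18, 60925618 to 60988152), had 2576 ± 502 CPM in cerebrum and 100.5 ± 36.1 CPM in cerebellum (SD, n = 4 each) and 4.77 ± 0.26 (adjusted p = 9.04e-07). For both genes library 2 was the highest of the cerebellum group, and all cerebrum libraries lay above it. Nptx1, neuronal pentraxin 1, was the single member called higher in cerebellum (-0.61 ± 0.16, adjusted p = 0.0131), and lost its call without cerebellum library 4 (-0.45, adjusted p = 0.0901).

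Striatal projection neuron markers were called higher in cerebrum for 20 of 30 members (median 1.90) and in cerebellum for 1. Drd1, the D1 dopamine receptor (ENSMUSG00000021478, chromosome 13, 54051183 to 54055705), had 34.7, 82.5, 9.87 and 47.2 CPM in cerebrum and 0.616, 0.601, 0.621 and 0.341 CPM in cerebellum, a log2 fold change of 5.89 ± 0.57 (adjusted p = 3.35e-05). Adora2a, the adenosine receptor of the indirect pathway, had 40.8, 85.6, 3.13 and 46.3 CPM in cerebrum and 1.98, 1.94, 2.35 and 3.35 CPM in cerebellum, a log2 fold change of 3.72 ± 0.68 (adjusted p = 0.00204). Library 3 was the lowest cerebrum library for both genes, and for Adora2a it lay below cerebellum library 4. Centred on the mean of the 8 libraries, the log2 level of the whole list was 1.0, 1.89, -0.06 and 1.34 in cerebrum and -1.15, -0.99, -0.87 and -1.17 in cerebellum. Strip2, the member called higher in cerebellum, had -1.1 ± 0.29 (adjusted p = 0.0162) and lost its call without cerebrum library 3 (-0.74, adjusted p = 0.0581).

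Among 32 markers of forebrain GABAergic interneurons, 19 were called higher in cerebrum and 7 in cerebellum. Cort, cortistatin, had 3.86, 6.599, 6.36 and 2.02 CPM in cerebrum and 0.0684, 0.2002, 0.276 and 0.0568 CPM in cerebellum, a difference of 5.04 ± 0.58 (adjusted p = 9.93e-05), and Vip, vasoactive intestinal peptide, 4.08 ± 0.25 (adjusted p = 1.69e-06). Members called higher in cerebellum included Calb2, calretinin, which granule cells express (43.2, 16.7, 65.8 and 46.1 CPM in cerebrum and 325, 341, 242 and 324 CPM in cerebellum; -2.8 ± 0.32, adjusted p = 9.99e-05), Pvalb, Reln and Kit. Gad1, which makes GABA in all these cells, had 408 ± 56.9 CPM in cerebrum and 388 ± 39.5 CPM in cerebellum (SD, n = 4 each), a log2 fold change of 0.03 ± 0.14 and a 95% interval within 1 either way.

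Thalamic, hypothalamic and olfactory bulb markers had few calls or calls on both sides. Of 18 thalamic markers, 2 were called higher in cerebrum and 4 in cerebellum, where 16.4% and 14.1% of all genes were, so both shares lie near those of all genes. The 4 included Calb2 (-2.8 ± 0.32, adjusted p = 9.99e-05), the calretinin gene, which granule cells also express, and Wnt3 (-2.04 ± 0.23, adjusted p = 8.86e-05), a Wnt ligand also made by Purkinje cells. Hypothalamic genes were tested for 11 of 22 members, and 3 were called, all higher in cerebrum: Nkx2-1, at least 56.5-fold, Avp (3.25 ± 0.81) and Cartpt (2.07 ± 0.47). The median of the list was -0.58, and only 4 of the 11 lay above 0. At an unadjusted p under 0.05, 1 member leaned to cerebellum (0 with DESeq2). Nkx2-1 had no count in cerebellum and Avp few, so they passed the filter on low counts through their cerebral counts. Their direction follows from the filter and is given as a description. Avp, vasopressin, had 0.807, 0.859, 1.56 and 3.93 CPM in cerebrum and 0, 0.0667, 0 and 0.568 CPM in cerebellum, and without cerebellum library 4 the cerebellum held 1 count and the ratio was 78.0 (95% interval 13.8 to 3105, counting error only). With cerebrum libraries 3 and 4 left out and the filter on low counts run again, 5 hypothalamic genes were called, counted over both directions. Avp was not among them (2.34, adjusted p = 0.101). Olfactory bulb markers were tested for 10 of 12 members, 2 called higher in cerebrum and 3 in cerebellum. Cdhr1, a cadherin of mitral cells, had 5.48, 11.6, 8.84 and 11.9 CPM in cerebrum and 1.16, 1.07, 1.31 and 0.965 CPM in cerebellum, a log2 fold change of 2.93 ± 0.29 (adjusted p = 3.7e-05). The 3 higher in cerebellum were Eomes (-5.12 ± 0.60), Calb2 and Kctd12 (-0.68 ± 0.18, adjusted p = 0.0182). The call of Kctd12 was lost without cerebellum library 4 (-0.69, adjusted p = 0.0602) or cerebrum library 1 (-0.61, adjusted p = 0.0573). The median of the list was 0.11, or -0.01 with library size alone.

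Genes of myelin and mature oligodendrocytes were called higher in cerebellum for 20 of 30 members and in cerebrum for none (0 also at an unadjusted p under 0.05 and with DESeq2), with a median log2 fold change of -0.63. Mbp, myelin basic protein, had 3766, 2450, 3538 and 2179 CPM in cerebrum and 5430, 4044, 6531 and 6245 CPM in cerebellum, a log2 fold change of -0.87 ± 0.20 (adjusted p = 0.0087). Gjb1, a connexin of oligodendrocytes, had -1.36 ± 0.22 (adjusted p = 0.00106). These calls depended on cerebellum library 4: without it 8 of the 30 were called and Mbp was not among them (-0.55, adjusted p = 0.0659), and among males alone 11 were called. The list level was -0.07, -0.58, -0.19 and -0.52 in cerebrum and 0.42, -0.05, 0.48 and 0.50 in cerebellum, with cerebellum library 2 the lowest of its group and above all cerebrum libraries.

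Precursors of oligodendrocytes showed the opposite direction. Of 14 markers, 7 were called higher in cerebrum and none in cerebellum (0 also at an unadjusted p under 0.05 and with DESeq2), with a median of 0.62. Pcdh15, a protocadherin, had 32, 36.2, 38.8 and 52.4 CPM in cerebrum and 17.6, 14.3, 17.4 and 11.01 CPM in cerebellum, a log2 fold change of 1.42 ± 0.22 (adjusted p = 0.00068). Cspg5, a brain proteoglycan, had 1.33 ± 0.14 (adjusted p = 4.74e-05), and Xylt1 and Tnr, which make and bind proteoglycans, 1.12 ± 0.16 and 1.01 ± 0.16.

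Of 30 astrocyte genes, 6 were called higher in cerebrum and 12 in cerebellum, where 16.4% and 14.1% of all genes were. The cerebral share thus lies near that of all genes. Slc1a2, the glutamate transporter GLT-1, had 3443, 4042, 3157 and 4755 CPM in cerebrum and 1293, 1201, 1393 and 1090 CPM in cerebellum, a log2 fold change of 1.58 ± 0.16 (adjusted p = 5.18e-05). Lhx2, listed with astrocytes and with forebrain factors, and Mfge8, a phagocytosis bridge protein (1.07 ± 0.17), were also higher in cerebrum. Higher in cerebellum were S100b, a calcium-binding protein (93.8, 92.4, 108 and 91.5 CPM in cerebrum and 316, 271, 299 and 302 CPM in cerebellum; -1.61 ± 0.12, adjusted p = 5.19e-06), the glycine transporter Slc6a9 (-1.24 ± 0.21) and the sodium pump subunit Atp1b2 (-1.21 ± 0.15). Agt, angiotensinogen, had -1.49 ± 0.43 (adjusted p = 0.0244), with -2.29 (adjusted p = 0.00126) without cerebrum library 3 and -1.14 (adjusted p = 0.171) without cerebellum library 4. S100b overlaps Dip2a and Slc6a9 overlaps B4galt2 on the other strand.

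Microglia genes were called higher in cerebrum for 17 of 23 members and in cerebellum for none (0 also at an unadjusted p under 0.05 and with DESeq2), with a median of 0.96. P2ry12, the purinergic receptor of resting microglia (ENSMUSG00000036353, chromosome 3, 59216272 to 59262871), had 27.04, 36.2, 23.99 and 38.7 CPM in cerebrum and 9.58, 7.67, 10.8 and 7.38 CPM in cerebellum, a log2 fold change of 1.75 ± 0.21 (adjusted p = 0.000122). Siglech had 10.6, 14.8, 7.92 and 12.5 CPM in cerebrum and 3.15, 2.94, 4.62 and 4.14 CPM in cerebellum, a difference of 1.5 ± 0.22 (adjusted p = 0.000558), and Fcrls and Cx3cr1, the fractalkine receptor, had 1.45 ± 0.22 and 1.4 ± 0.13. All 4 cerebrum libraries lay above all 4 cerebellum libraries for 17 of the 23 genes (18.8% of all genes). P2ry12 lies within Med12l and Cx3cr1 overlaps other genes, so that without a known strand setting some of their reads may be shared.

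None of the 21 tested endothelial and mural cell genes was called by edgeR's test or by DESeq2, and none had an unadjusted p under 0.05 (0 each). The list ranged from -0.32 (Cldn5, a tight junction claudin) to 0.39 (Acta2, smooth muscle actin), both singled out after their values were seen, and for all 21 the 95% interval lay within 1 either way. Of 12 meningeal genes 1 was called, and of 6 tested blood genes 1, Slc4a1, the anion exchanger of red cells and kidney (-3.09 ± 0.65, adjusted p = 0.00477). Summed blood transcripts were 9.1 to 39.6 CPM in cerebrum and 9.7 to 76.6 CPM in cerebellum. Without cerebrum library 1, 3 blood genes and 2 meningeal genes were called.

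Choroid plexus genes were called higher in cerebellum for 12 of 22 members, but the libraries varied within both tissues. Ttr, transthyretin, the most abundant choroid plexus transcript, had 1142, 470.3, 332 and 156 CPM in cerebrum and 1147, 1467, 1559 and 2080 CPM in cerebellum, a log2 fold change of -1.59 ± 0.48 (adjusted p = 0.0285). For the list as a whole cerebrum library 1 lay just below the lowest cerebellum library, and the centred levels were 0.28, -0.57, -0.77 and -0.96 in cerebrum and 0.29, 0.52, 0.56 and 0.65 in cerebellum. When cerebellum library 4 was left out, 2 of the 22 were called, Ttr was not called (-0.92, adjusted p = 0.25) and Otx2, a factor of choroid plexus and unipolar brush cells, moved from -1.88 to -1.13 (adjusted p = 0.0375). Males alone gave 3 calls, and 7 were called without cerebrum libraries 3 and 4.

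**Figure D4:**
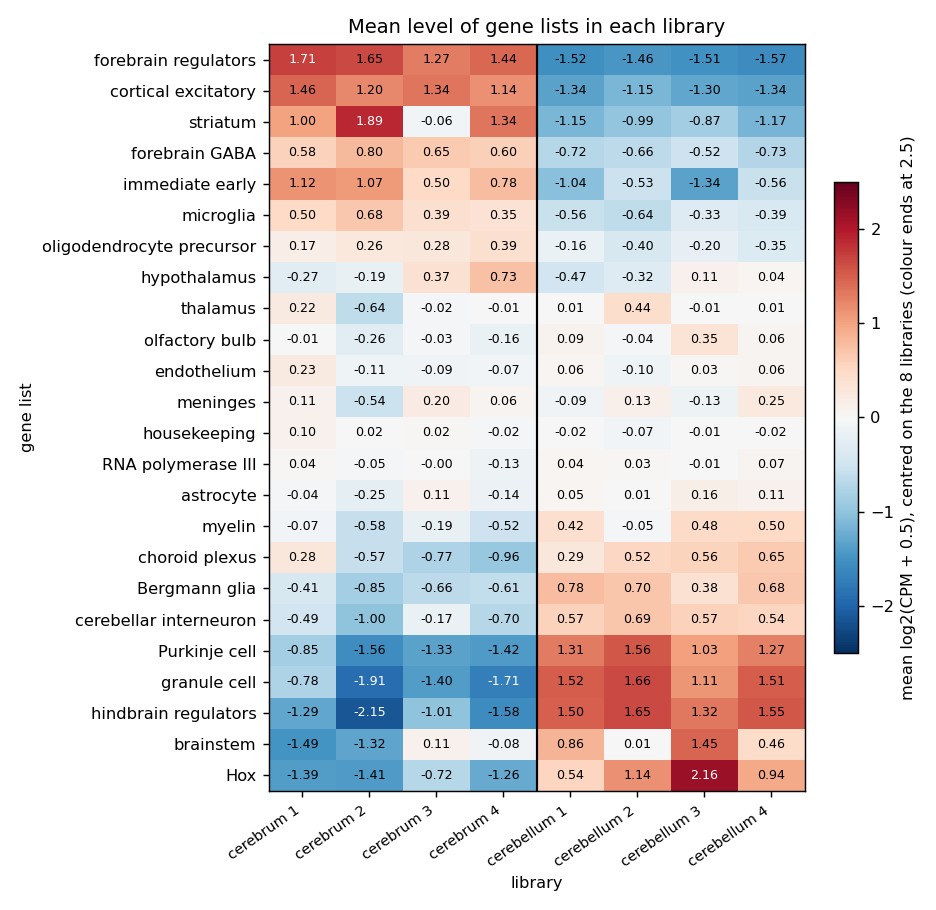
Mean log2 level of 24 gene lists (rows) in the 8 libraries (columns), centred on the mean of the 8; red is higher and blue lower, and the printed numbers are the values. Lists of forebrain regulators and of cortical, striatal and forebrain GABA neurons, and those of Purkinje cells, granule cells and cerebellar interneurons, do not overlap between the tissues, while thalamic, hypothalamic and olfactory bulb lists do, and choroid plexus, striatal and brainstem lists vary within a tissue, with the striatal level at -0.06 in cerebrum library 3.

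Ionotropic glutamate receptors, the channels of fast excitation, were tested for 18 subunits, of which 9 were called higher in cerebrum and 4 in cerebellum. NMDA receptor subunits divided by tissue. Grin2b (ENSMUSG00000030209, chromosome 6, 135713233 to 136173511), the subunit of juvenile and forebrain receptors, had 794, 991, 765 and 1227 CPM in cerebrum and 57.2, 69.3, 58.7 and 46.1 CPM in cerebellum, a log2 fold change of 3.98 ± 0.21 (adjusted p = 8.47e-07). Grin2c (ENSMUSG00000020734, chromosome 11, 115249169 to 115267243), the subunit of mature granule cells, had 86.96, 60.4, 60.9 and 49.4 CPM in cerebrum and 458, 459, 304 and 499 CPM in cerebellum, a log2 fold change of -2.73 ± 0.21 (adjusted p = 8.57e-06). Grin2a had 1.72 ± 0.15, and Grin1, the subunit all these receptors need, had 419 ± 97.6 CPM in cerebrum and 374 ± 26.1 CPM in cerebellum (SD, n = 4 each) and was not called (0.20 ± 0.16, adjusted p = 0.392). The delta receptor gene Grid1 had 1.25 ± 0.12 (adjusted p = 2.7e-05). Of AMPA receptor subunits, Gria2 (1.03 ± 0.20) and Gria3 (1.28 ± 0.15) were higher in cerebrum by at least 2-fold and Gria4 (-1.38 ± 0.15) in cerebellum. Grin3b (-2.36 ± 0.40) had few counts and overlaps Tmem259 on the other strand.

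Metabotropic glutamate receptors, which act through G proteins, were tested for 7 of 8 members, and all 7 were called by at least 2-fold, 5 higher in cerebrum and 2 in cerebellum. Grm5, a group I receptor, had 218, 329.7, 269 and 340.5 CPM in cerebrum and 30.3, 46.4, 43.6 and 19.4 CPM in cerebellum, a log2 fold change of 3.1 ± 0.29 (adjusted p = 3.04e-05). Grm4, on parallel fibre terminals, had -3.66 ± 0.26 (adjusted p = 5.08e-06), and its group III relatives Grm7 and Grm8 had 1.45 ± 0.18 and 1.2 ± 0.19.

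GABA-A receptor subunits were tested for 16 of 19 members, 8 called higher in cerebrum and 2 in cerebellum. Alpha subunits, which set the drug and kinetic properties of the receptor, stood on both sides. Gabra6 was described above, and on the cerebral side stood Gabra4 (2.47 ± 0.22), Gabra5 (2.32 ± 0.21), Gabra3 (1.92 ± 0.22) and Gabra2 (1.58 ± 0.20). Gabrg3 had 43.4, 63.5, 35.8 and 60.9 CPM in cerebrum and 5.27, 7.28, 10.1 and 4.995 CPM in cerebellum, a log2 fold change of 2.8 ± 0.28 (adjusted p = 4.2e-05). Gabrd, the extrasynaptic partner of Gabra6, had -1.66 ± 0.39 (adjusted p = 0.00832) and missed the threshold without cerebellum library 4 (-1.55, adjusted p = 0.0565). Gabra4 and Gabrb1 overlap on opposite strands, and Gabra5 overlaps a neighbouring gene. Of 5 glycine receptor genes, Glra2 (1.39 ± 0.25) and Glra3 (1.9 ± 0.51) were called higher in cerebrum and none in cerebellum. Only 2 of the 5 lay above 0, the median was -0.09 and the lowest value -2.31. At an unadjusted p under 0.05, 2 members leaned to cerebellum (0 with DESeq2). The call of Glra3 was lost without cerebellum library 4 (1.22, adjusted p = 0.0772) or cerebrum library 3 (1.65, adjusted p = 0.132).

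**Figure D5:**
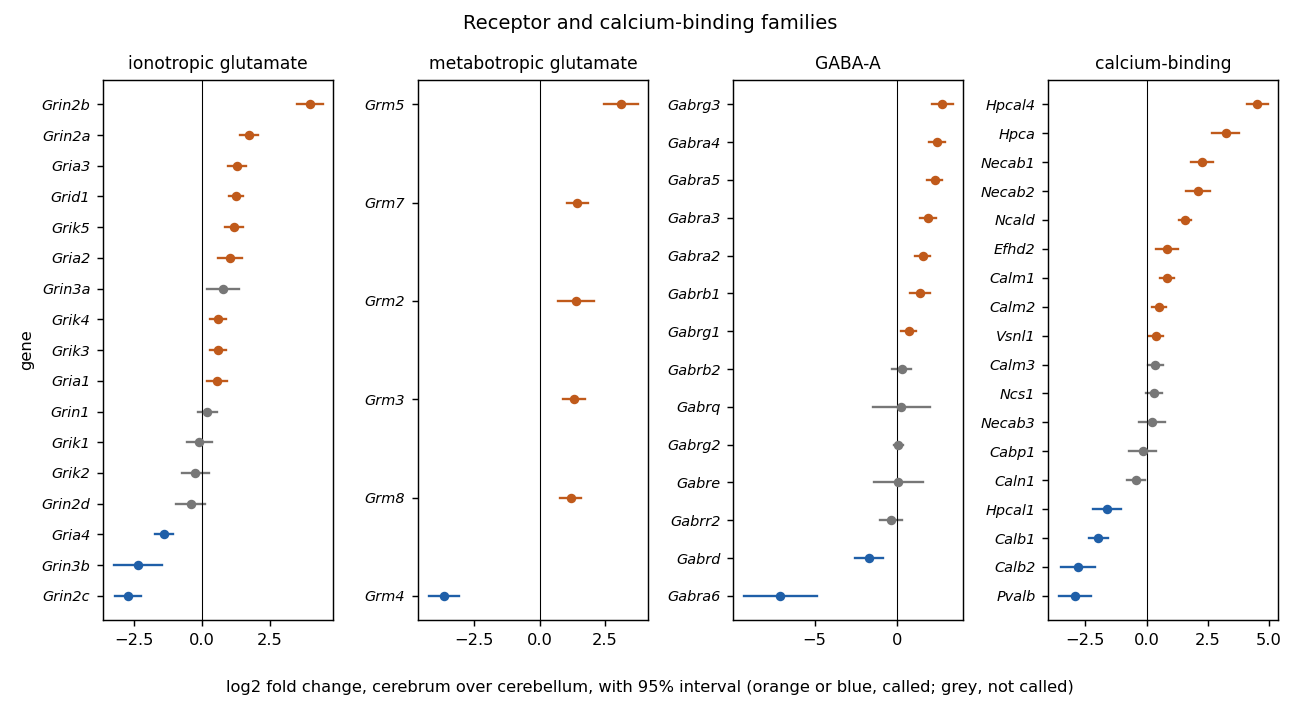
Log2 fold change with its 95% interval (horizontal axis, positive is higher in cerebrum) of tested ionotropic and metabotropic glutamate receptors, GABA-A receptor subunits and calcium-binding proteins, without the genes not reported here. Members at both ends of each family, such as Grin2b and Grin2c or Grm5 and Grm4, have intervals on opposite sides of 0, while that of Grin1 includes 0.

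Receptors for monoamines, acetylcholine, adenosine, histamine, opioids and cannabinoids were tested for 38 of 41 members. Of these, 23 were called higher in cerebrum and 1 in cerebellum, with a median log2 fold change of 1.38. Chrm1, the M1 muscarinic receptor (ENSMUSG00000032773, chromosome 19, 8663789 to 8683587), had 206, 192, 167 and 144 CPM in cerebrum and 1.23, 2.47, 1.24 and 1.93 CPM in cerebellum, a difference of 6.69 ± 0.24 (adjusted p = 2.64e-07), and Chrm4 and Chrm3 had 4.33 ± 0.40 and 2.86 ± 0.20. Serotonin receptors among the calls included Htr2a (2.54 ± 0.32), Htr4 (2.49 ± 0.36), Htr6 (2.3 ± 0.36) and Htr1a (1.71 ± 0.27). Drd2, the D2 dopamine receptor, had 2.45 ± 0.49 (adjusted p = 0.00361), and the opioid receptors Oprk1 and Oprd1 1.94 ± 0.33 and 1.79 ± 0.28. Adra1b, an adrenergic receptor, had 1.28 ± 0.34 (adjusted p = 0.0167) and was not called without cerebrum library 1 (0.78, adjusted p = 0.0919). The call toward cerebellum was that of Cnr1, the cannabinoid receptor of presynaptic terminals (-0.60 ± 0.16, adjusted p = 0.0167). It was lost without cerebrum library 1 (-0.55, adjusted p = 0.0572) or 3 (-0.50, adjusted p = 0.086).

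Voltage-gated potassium channel genes were called higher in cerebrum for 21 of 35 and in cerebellum for 6, with a median of 1.47. Of all genes, 16.4% and 14.1% were called so, and the cerebellar share lies near the latter. By at least 2-fold the counts were 19 and 3. Kcnv1, a modulatory subunit that cannot form channels alone, had 96.1, 123, 60.8 and 109.5 CPM in cerebrum and 0.547, 0.934, 0.6896 and 0.1703 CPM in cerebellum, a log2 fold change of 7.3 ± 0.37 (adjusted p = 7.28e-07). Other modulatory subunits were also higher in cerebrum, among them Kcnf1 (4.98 ± 0.22), Kcng3 (4.31 ± 0.68) and Kcng1 (3.98 ± 0.28), and so were the EAG family members Kcnh4 (5.0 ± 0.54) and Kcnh3 (4.98 ± 0.41) and the M-channel subunits Kcnq5 (3.94 ± 0.32) and Kcnq3 (2.14 ± 0.22). On the cerebellar side were the fast delayed rectifier Kcnc1 (-1.57 ± 0.15, adjusted p = 3e-05) and the modulatory Kcng4 (-2.92 ± 0.26, adjusted p = 1.93e-05). The Kcnc1 relative Kcnc2 went the other way (1.94 ± 0.16, adjusted p = 1.27e-05).

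Sodium, calcium and HCN channel genes were called higher in cerebrum for 12 of 34 and in cerebellum for 8, against 16.4% and 14.1% of all genes. Cacna1a, the P/Q-type channel of Purkinje cells and another ataxia gene, had 369.9, 278, 297 and 239 CPM in cerebrum and 671, 823, 534 and 769 CPM in cerebellum, a log2 fold change of -1.22 ± 0.18 (adjusted p = 0.000466). T-type channels were divided, Cacna1g with -1.35 ± 0.23 (adjusted p = 0.00134) and Cacna1h with 2.49 ± 0.13 (adjusted p = 9.04e-07). The same was seen for alpha2delta subunits, with Cacna2d2 at -1.14 ± 0.13 (adjusted p = 8.14e-05) and Cacna2d1 at 1.82 ± 0.19 (adjusted p = 5.36e-05). Scn3b and Scn3a, sodium channel subunits, had 3.1 ± 0.19 and 2.53 ± 0.36.

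Calcium-binding proteins of the EF-hand family were called higher in cerebrum for 9 of 18 and in cerebellum for 4. The hippocalcin genes Hpcal4 (4.52 ± 0.19) and Hpca (3.23 ± 0.25) and the N-terminal EF-hand genes Necab1 (2.27 ± 0.20) and Necab2 (2.09 ± 0.22) were on the cerebral side. The buffers Pvalb, Calb2 and Calb1 and the sensor Hpcal1 (-1.61 ± 0.26) were on the cerebellar side. Calm2, a calmodulin gene, had 0.51 ± 0.13 (adjusted p = 0.015) and missed the threshold without cerebrum library 1 (0.38, adjusted p = 0.0698) or cerebellum library 1 (0.47, adjusted p = 0.0556). Among 47 genes of calcium release and kinase signalling, 18 were called higher in cerebrum and 11 in cerebellum. The calcium pump Atp2a3, SERCA3, had 25.6, 11.3, 10.9 and 9.71 CPM in cerebrum and 197, 256, 158 and 256 CPM in cerebellum, a log2 fold change of -3.89 ± 0.32 (adjusted p = 1.22e-05). The channels Trpc4 and Trpc6 had 3.14 ± 0.17 (adjusted p = 1e-06) and 3.05 ± 0.24 (adjusted p = 7.91e-06).

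Synaptic organisers, proteins that align the membranes on both sides of a synapse, were called higher in cerebrum for 20 of 32 and in cerebellum for 3. Nptx2, an activity-induced pentraxin, had 79.1, 70.3, 55.5 and 64.4 CPM in cerebrum and 4.51, 4.005, 4.96 and 3.46 CPM in cerebellum, a log2 fold change of 4.03 ± 0.18 (adjusted p = 4.14e-07). The cerebellin relatives went opposite ways, with Cbln1 and Cbln3 on the cerebellar side, Cbln4 at 1.16 ± 0.23 (adjusted p = 0.00347) and C1ql3 at 2.63 ± 0.15 (adjusted p = 1.21e-06). Leucine-rich repeat genes Lrrtm4 (2.45 ± 0.19), Lrrtm1 (2.29 ± 0.18) and Lrfn2 (2.13 ± 0.21) and the neuroligin Nlgn1 (1.53 ± 0.19) were on the cerebral side. C1ql2 (1.84 ± 0.58, adjusted p = 0.0345) missed the threshold without cerebrum library 3 (1.23, adjusted p = 0.179) and without each of 3 other libraries.

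Of 17 transmitter transporters and synthesis enzymes, 5 were called on each side, where 16.4% of all genes were called higher in cerebrum and 14.1% in cerebellum. Slc17a8, VGLUT3, had 1.95 ± 0.49 (adjusted p = 0.0125), or 1.19 (adjusted p = 0.0418) without cerebellum library 4, and Slc1a1, the neuronal glutamate transporter EAAC1, 1.47 ± 0.13 (adjusted p = 2.34e-05). Slc32a1, which loads GABA and glycine into vesicles, was slightly higher in cerebellum (-0.59 ± 0.14, adjusted p = 0.00903). Proteoglycans and link proteins of perineuronal nets divided 3 to 4 among 10, with Ncan, neurocan, at 355, 269, 233 and 277 CPM in cerebrum and 51.2, 51.8, 52.1 and 56.02 CPM in cerebellum (2.43 ± 0.15, adjusted p = 1.75e-06) and Hapln4 at -0.54 ± 0.12 (adjusted p = 0.00547). Without cerebellum library 4, 4 of these 10 were called in place of 7, and Hapln2 was lost (-1.09, adjusted p = 0.0529).

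Neuropeptides and neurotrophins were tested for 26 of 28 members, 15 called higher in cerebrum and 2 in cerebellum. Tac2, neurokinin B, had 8.02, 4.66, 3.34 and 3.45 CPM in cerebrum and 0.274, 0, 1.31 and 0.0568 CPM in cerebellum, a log2 fold change of 3.86 ± 0.76 (adjusted p = 0.00343). Pdyn, prodynorphin of striatal and hippocampal neurons, had 33.1, 53.3, 12.1 and 40.2 CPM in cerebrum and 1.78, 2.47, 2.96 and 1.59 CPM in cerebellum, a log2 fold change of 3.75 ± 0.42 (adjusted p = 9.12e-05). The calls toward cerebellum, Nppc (-1.56 ± 0.46, adjusted p = 0.0273) and Ntf3 (-1.56 ± 0.37, adjusted p = 0.00876), a C-type natriuretic peptide and neurotrophin 3, were both lost without cerebellum library 4 (-0.70, adjusted p = 0.223 and -1.15, adjusted p = 0.0969).

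Immediate early genes, which neurons transcribe within minutes of activity, were called higher in cerebrum for 13 of 19 and in cerebellum for 2. Egr3 had 257, 204, 145 and 157 CPM in cerebrum and 0.752, 4.21, 1.17 and 0.908 CPM in cerebellum, a log2 fold change of 6.88 ± 0.47 (adjusted p = 3.68e-06), with library 2 the highest of the cerebellum group. Arc, a capsid-like synaptic protein, had 239.7, 231, 65.5 and 144 CPM in cerebrum and 17.5, 16.7, 22.8 and 22.4 CPM in cerebellum, a difference of 3.02 ± 0.36 (adjusted p = 0.000133), and Egr2 had 5.2 ± 0.64 (adjusted p = 0.000169). Ier2 was on the cerebellar side (9.05, 8.36, 6.2 and 6.16 CPM in cerebrum and 15.7, 18.2, 12.2 and 22.7 CPM in cerebellum; -1.25 ± 0.22, adjusted p = 0.00171), and Dusp1 (-0.90 ± 0.28, adjusted p = 0.0324) lost its call without cerebellum library 4 (-0.67, adjusted p = 0.214) and without each of 4 other libraries. Neuroblast and proliferation genes were tested for 10 of 12 members, 7 called higher in cerebrum and 1, Eomes, in cerebellum. Dcx, doublecortin of migrating neuroblasts, had 38.6, 70.4, 38.2 and 64.6 CPM in cerebrum and 12.9, 9.28, 10.4 and 7.32 CPM in cerebellum, a log2 fold change of 2.28 ± 0.26 (adjusted p = 9.93e-05). Mki67, a marker of dividing cells, had 5.13, 5.61, 2.05 and 6.74 CPM in cerebrum and 1.92, 0.401, 0.828 and 0.908 CPM in cerebellum, a log2 fold change of 2.1 ± 0.49 (adjusted p = 0.00854) that was lost without cerebellum library 4 (1.77, adjusted p = 0.0509). Without that library 5 of the 10 were called, and 5 also without cerebrum library 1 and cerebellum library 2.

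RNA polymerase III, the enzyme that the series is about, was described in wild types by 30 genes of its subunits and transcription factors. The median log2 fold change was -0.03, as over all genes, and for 29 of the 30 the 95% interval lay within 1 either way and for 11 within 0.5. Polr3a (ENSMUSG00000025280, chromosome 14, 24448696 to 24487058) had 36.3, 40.5, 43.5 and 45.1 CPM in cerebrum and 55.8, 56.7, 44.5 and 39.9 CPM in cerebellum. Its log2 fold change was -0.22 ± 0.15 (adjusted p = 0.313), and cerebellum libraries 3 and 4 lay within the range of the cerebrum libraries. The 2 calls, both higher in cerebellum, were Polr3gl (-0.76 ± 0.26, adjusted p = 0.0466), an alternative to the subunit POLR3G, and Polr1d (-0.50 ± 0.17, adjusted p = 0.0442), a subunit shared with RNA polymerase I. Neither was called without cerebellum library 4 (-0.27, adjusted p = 0.409 and -0.36, adjusted p = 0.231). The list also had 0 calls without cerebellum library 1, cerebellum library 3 or cerebrum library 2, each left out alone. Scaling by library size alone gave 5 calls. Of 22 aminoacyl-tRNA synthetase genes, which charge the transfer RNAs made by this polymerase, 2 were called, Vars (-0.57 ± 0.19, adjusted p = 0.0474) and Farsa (-0.46 ± 0.15, adjusted p = 0.0388), and none without any of 6 of the 8 libraries or with the replicate number as a block.

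Genes encoded by the mitochondrial chromosome were all on the cerebral side among 12 tested members, and 5 were called, with a median of 0.53. The complex I subunit gene mt-Nd1 had 5718, 6498, 5667 and 7334 CPM in cerebrum and 4532, 4481, 4666 and 3267 CPM in cerebellum, a log2 fold change of 0.58 ± 0.17 (adjusted p = 0.023). Cerebellum library 4 was the lowest library, and without it none was called (mt-Nd1 0.32, adjusted p = 0.0853). With library size alone 2 were called and mt-Nd1 was not (0.46, adjusted p = 0.0524). The chromosome took 4.42% to 6.07% of counts in cerebrum and 3.05% to 4.06% in cerebellum. Interferon-stimulated genes had 1 call on each side among 24 tested, Ifit2 (1.18 ± 0.21, adjusted p = 0.00181) and Stat2 (-1.61 ± 0.15, adjusted p = 2.75e-05), and with library size alone 4. MHC and antigen processing genes had 3 calls of 14, all higher in cerebellum, a share of members not far from the 14.1% of all genes called on that side. Of these, H2-D1, a class I heavy chain, had 44.8, 23.4, 32.1 and 14.1 CPM in cerebrum and 90.8, 90.8, 83.2 and 113 CPM in cerebellum, a log2 fold change of -1.71 ± 0.27 (adjusted p = 0.000855). The other 2, Tap2 and Tapbp, were lost without cerebellum library 4 (-0.82, adjusted p = 0.0772 and -0.28, adjusted p = 0.249) and with most other libraries left out. Of 16 genes used as reference transcripts, Ywhaz (1.1 ± 0.15, adjusted p = 0.000266) and Actb (1068, 934, 844 and 1112 CPM in cerebrum and 621, 612, 562 and 676 CPM in cerebellum; 0.65 ± 0.13, adjusted p = 0.00335) were called, both higher in cerebrum and also with library size alone.

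Compared per length of the gene model, 2 of the 5 most abundant nuclear transcripts were the same in both tissues. In CPM per kilobase, Fth1, the ferritin heavy chain, had 1488 in cerebrum and 1693 in cerebellum, and Sparcl1, a matricellular protein of astrocytes, 583 and 654. Among the 5 highest in cerebrum were also Cpe, which processes neuropeptides (761), Calm2 (652) and the elongation factor Eef1a1 (639). Those of cerebellum were Ttr (1283), the brain creatine kinase Ckb (669) and Mbp (662).

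The share called was also counted by kind of gene, with no test. Of 94 homeobox transcription factors tested, 18 were called higher in cerebrum and 36 in cerebellum (57.45% called), against 161 and 186 of 1090 transcription factors of all families (31.8%). Long intergenic noncoding RNAs were called for 34.5% of 618 and protein-coding genes for 32.55% of 14650, while processed pseudogenes were called for 6.56% of 518. POU factors, a class of homeodomain proteins of neurons, had 6 calls toward cerebrum and 1 toward cerebellum among 10.

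Variation between libraries was larger in cerebrum. Among genes with at least 5 CPM on average, the median SD of log2 level was 0.239 in cerebrum (12217 genes) and 0.155 in cerebellum (12129 genes), and the SD was above 1 for 110 and 24 genes. Xist, Ddx3y, Kdm5d, Eif2s3y and Uty, the X inactivation transcript and genes of the Y chromosome, varied most in both tissues and divided males from females. After these came genes of other regions in cerebrum, such as Slc6a5, with an SD of 2.67 there, and Cbln3, with 2.55. In cerebellum Entpd4b, a nucleotidase gene, had an SD of 2.295, with 5.81, 22.9, 0.483 and 0.341 CPM, and Nrgn had 1.43.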

How the data were processed

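PolyA-enriched libraries made from Trizol-extracted RNA by a sequencing company were used, per the labels' protocols. The authors deposited a table of read counts per gene as whole numbers with no scaling. Per the submitters' processing notes the tools were HISAT2 and DESeq2 and the build mm10. No source used here gives versions, the read counter, its strand setting or the annotation release. The 8 columns of mutant libraries in the same table were not used.

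Genes were filtered with filterByExpr by tissue, scaled with TMM, and tested in R 4.3.3 with edgeR 4.0.16 (limma 3.58.1), by the quasi-likelihood F test with sex as a covariate, two-sided, and Benjamini-Hochberg adjustment over all 17964 genes tested. A call is an adjusted p under 0.05, and a 2-fold call also has an absolute log2 fold change of at least 1. The SE was taken from the fold change and its F statistic. Levels of a list are means of log2(CPM + 0.5) over tested members. Folds against a tissue with no count use a floor of 3 counts over the 4 libraries, and against 1 to 3 counts a ratio with an exact 95% interval, both for counting error only, since reads carried no molecular identifiers. Genes nearly absent from a tissue passed the filter on low counts through the other tissue, so their direction follows from the filter.

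The 46 gene lists, the comparison and the tests were chosen with earlier results of these data known. The rule for naming took, per direction, the 15 largest differences among called protein-coding genes with at least 5 CPM and no overlap, up to 4 called members of each list, every family member called at 2-fold, list members called at 2-fold against the side of their list, the 5 highest per length and the 5 most variable genes of each tissue, and Polr3a with called members of its list, 272 genes in all. Other genes named serve as a family's reference. Some genes of the rule and lists are not reported here, though counts over a list include them. Of 852 list symbols 1 was not found in the table and 795 were tested. Promoters are from RefSeq, 1 per gene. The scripts were tested on simulated data. Alternatives were DESeq2 1.42.0, other scalings and filters, no sex term, the replicate number as a block, males only, an adjusted p under 0.01, a test against 2-fold, each library left out, and 2 pairs of libraries left out, the pairs chosen after seeing the data. Where libraries were left out, the filter was run again on those kept, so the genes tested differed from the main fit.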

Additional observations from a re-analysis of the deposited data

Results flagged for a closer look

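Within a tissue of 4 libraries, a value was set apart when its gap to the nearest other library exceeded the 95% critical value of Dixon's ratio. Of 583 groups examined (named genes and list levels in each tissue) 46 met this, 7.89%. The critical value sets apart about 5% of groups only where values are independent and normally distributed. Levels of genes were taken as CPM without a log, and the groups share libraries. The 7.89% can therefore not be read against 5%. The library set apart was cerebrum 1 as the highest in 15, cerebellum 2 as the highest in 8 and cerebellum 4 as the lowest in 7.

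Cerebrum library 1 was highest for genes of cerebellar neurons. It had 36.3 CPM of Cbln3 (the others 0.226 to 1.56), 12.2 of Gabra6, 26.6 of Fat2, 6.92 of Pcp2, 66.1 of Car8, 107.1 of Zic1 (25.2 to 29.0), 14.99 of Zic4, 25.6 of Atp2a3, 69.5 of Grm4, 2.88 of Eomes, 1.61 of Crtam and 0.807 of Skor2. Its centred list levels were also highest for ZIC genes (-0.46), MHC genes (0.12) and endothelial genes (0.23), and Kctd12, a GABA-B receptor auxiliary subunit, was lowest at 34.6 CPM. Cerebrum library 3 was highest for Slc6a2 (0.863 CPM), Dbh (1.13), S100b (108.4) and Acan (11.4), and lowest for Dusp1 (19.8). Cerebrum library 4 was lowest for Mfge8 (82.0 CPM).

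Cerebellum library 2 was highest for genes of forebrain neurons, with 64.1 CPM of Nrgn (the others 6.70 to 12.6), 154.1 of Camk2a (77.4 to 89.1), 20.8 of Foxp2, 9.74 of Kcnip2 and 4.21 of Egr3, and for Strip2 (199.5) and Slc5a1 (9.68). Its thalamic list level of 0.44 was the highest of the group, and its levels of myelin (-0.05) and reference genes (-0.0735) were the lowest. Cerebellum library 3 was highest for Adra1b (11.3 CPM), C1ql2 (6.14) and Oprk1 (4.34), and lowest for Zic2 (192.3) and the ZIC list (1.19). Cerebellum library 4 was lowest for mt-Nd1 (3267 CPM), mt-Nd5 (2212), mt-Nd6 (843.5), Gabrb1 (58.8), Kcnb2 (8.23), Drd1 (0.341) and the GABA-A receptor list (-0.41), and highest for Mdfi (15.3) and Avp (0.568). What sets these libraries apart was not tested.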

How the results depend on the processing

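No alternative gave a call in the direction opposite to the main one (0 genes in each), and of the 2856 genes called at 2-fold, 2283 to 2851 were still called under these alternatives, the test against 2-fold aside. Calls numbered 5474 with relative log expression scaling, 5924 with library size alone, 6360 with no filter on low counts, 5296 with at least 1 CPM in 4 libraries, 6293 with no sex term, 4956 among males, 6122 with DESeq2, 4954 without cerebrum libraries 3 and 4, and 4305 without cerebrum library 1 and cerebellum library 2. At an adjusted p under 0.01 there were 3311 calls, 1932 higher in cerebrum and 1379 in cerebellum. A test against 2-fold (glmTreat) called 1279 genes, 805 and 474, in place of 2856. Leaving out each library in turn gave 4074 to 5856 calls, with 2414 to 3227 higher in cerebrum and 1660 to 2629 in cerebellum, the lowest without cerebellum library 4. That library is the only female of its group, so sex and library cannot be told apart there. Of the 272 named genes, 38 lost their call without it; the cause was not tested. The sex-linked genes Kdm5d and Eif2s3y, not called, changed sign: without cerebrum library 1 and cerebellum library 2 their log2 fold changes were 0.0167 and 0.0228, and with each library left out in turn that of Eif2s3y ranged from -0.217 to 0.0227.

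With the replicate number as a block in place of the sex term 5185 genes were called. Deviations of same-numbered libraries correlated at -0.06, 0.12, 0.19 and -0.27 across genes, and those of differently numbered ones at -0.215 to 0.281. Library 2 came from a female in cerebrum and a male in cerebellum, so that number does not mark a shared animal. For the other numbers these correlations cannot tell whether an animal is shared, because dissection also moves the deviations. Of the Hox and hypothalamic lists, 18 of 25 and 11 of 22 members did not pass the filter on low counts, some because too few libraries held them. A difference between the tissues in these genes was not tested.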
